A study of Homo sapiens with 8 samples.

Results

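The 9 enzymes described here make serine from a glycolytic intermediate and pass its one-carbon unit through folate: PHGDH, PSAT1 and PSPH of serine synthesis, SHMT1 and MTHFD1 of the cytosolic folate arm, and SHMT2, MTHFD2, MTHFD1L and ALDH1L2 of the mitochondrial arm. They were taken by gene symbol from the deposited gene tables, where each symbol had 1 row, so that 9 of 57820 genes were described and all 9 were abundant enough to be tested. All libraries came from A549, an established human lung adenocarcinoma line, and the labels put 2 libraries in each of 4 groups. In one experiment the cells carried an empty vector (Empty) or a vector that overexpresses MGA (MGA). In the other they received a negative control siRNA (siNC) or an siRNA that silences MYC (siMYC). The labels name neither the vector and its promoter nor the time points and siRNA sequences.

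Serine synthesis starts from 3-phosphoglycerate: PHGDH oxidises it, PSAT1 adds the amino group and PSPH removes the phosphate. SHMT1 in the cytosol and SHMT2 in mitochondria then split serine into glycine and a one-carbon unit bound to tetrahydrofolate. In many proliferating cells that unit is oxidised to formate in mitochondria and returns to the cytosol, where MTHFD1 loads it onto folate for purine and thymidylate synthesis. MYC, as a dimer with MAX, binds the E-box sequence and activates many genes of biosynthesis, and MGA also pairs with MAX at E-boxes as part of a Polycomb repressor complex. ATF4, the transcription factor of the amino acid response, also drives serine synthesis and mitochondrial folate genes.

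The 8 libraries were shallow, with total expected counts of 820428 to 2129006, and the members had between 12 counts (ALDH1L2) and 467 counts (MTHFD2) in a library. The Empty and MGA libraries were the shallower ones, at 820428 to 1176890, against 1398805 to 2129006 with siNC and siMYC. In normalised read counts (CPM, the counts brought to a common library total after TMM scaling), MYC stood at 219 and 183 with siNC and at 48.3 and 41.1 with siMYC. The MGA transcript itself took 9.54% and 9.68% of the counts of the libraries that overexpress it, and at most 0.0124% elsewhere. In the overexpression experiment MYC stood at 234 and 241 CPM with Empty and 296 and 347 CPM with MGA. Of 5 epithelial markers all 5 were present, with summed levels per length (TPM) of 4858 to 8394, although EPCAM lay between 0 and 1.13 TPM in the Empty and MGA libraries. The immune markers PTPRC and CD3E, the endothelial markers VWF, CDH5 and KDR, the fibroblast marker DCN and the alveolar surfactant genes SFTPC, SFTPB and SFTPA1 were listed at 0 in all 8 libraries. The summed level of 5 fibroblast markers moved with siMYC, from 10.9 and 20.3 TPM to 87.0 and 87.7 TPM, of which COL1A1 made up 84.8 and 87.2 TPM, and DCN stayed at 0. The summed level of 5 alveolar type 2 markers, here NAPSA and ABCA3, also moved with siMYC, from 15.6 and 12.7 to 25.7 and 26.5 TPM. That of 5 immune markers, here CD79A, CD14 and LYZ, moved from 5.88 and 4.72 to 11.3 and 13.5 TPM with siMYC and from 6.53 and 9.33 to 15.7 and 16.7 TPM with MGA. The part of these markers in the results below was not tested.

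MYC knockdown lowered 8 of the 9 enzymes, against 20.0% of all 11218 genes tested that were called lower (edgeR's quasi-likelihood test, adjusted p under 0.05 over all genes). MTHFD2 fell furthest, to 0.263 of its control level, and ALDH1L2, the least abundant member, was the exception. MGA overexpression lowered 1 of the 9, MTHFD1, against 4.0% of all genes called lower, and raised 0 of them, against 4.96% called higher (449 and 556 genes, or 628 and 387 with upper quartile size factors and 821 and 300 with library totals alone). At an unadjusted p under 0.05, 2 members were lower with MGA (MTHFD1 and PSAT1) and 0 were higher. The response to MGA differed from the response to siMYC in 4 of the 9, PSAT1, SHMT2, MTHFD2 and MTHFD1L, in each of which the log2 fold change with MGA was above that with siMYC, against 10.3% of all genes called in that direction, and 0 in the other, against 8.22% (1154 and 922 genes, or 804 and 1188 with upper quartile size factors, 714 and 1357 with library totals alone and 897 and 1096 without the MGA gene). With library totals alone the median of all genes shifted by -0.13 in the MGA comparison and by -0.17 in the difference, and the same 4 differences and the fall of MTHFD1 were still called. DESeq2 called 5 members with siMYC, 1 with MGA and 2 differences, and limma on log2(TPM + 1) called 4, 0 and 1. The median log2 fold change of the 9 members was -0.92 with siMYC and -0.10 with MGA, beside 0.01 in each comparison for all genes tested.

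**Figure D1:**
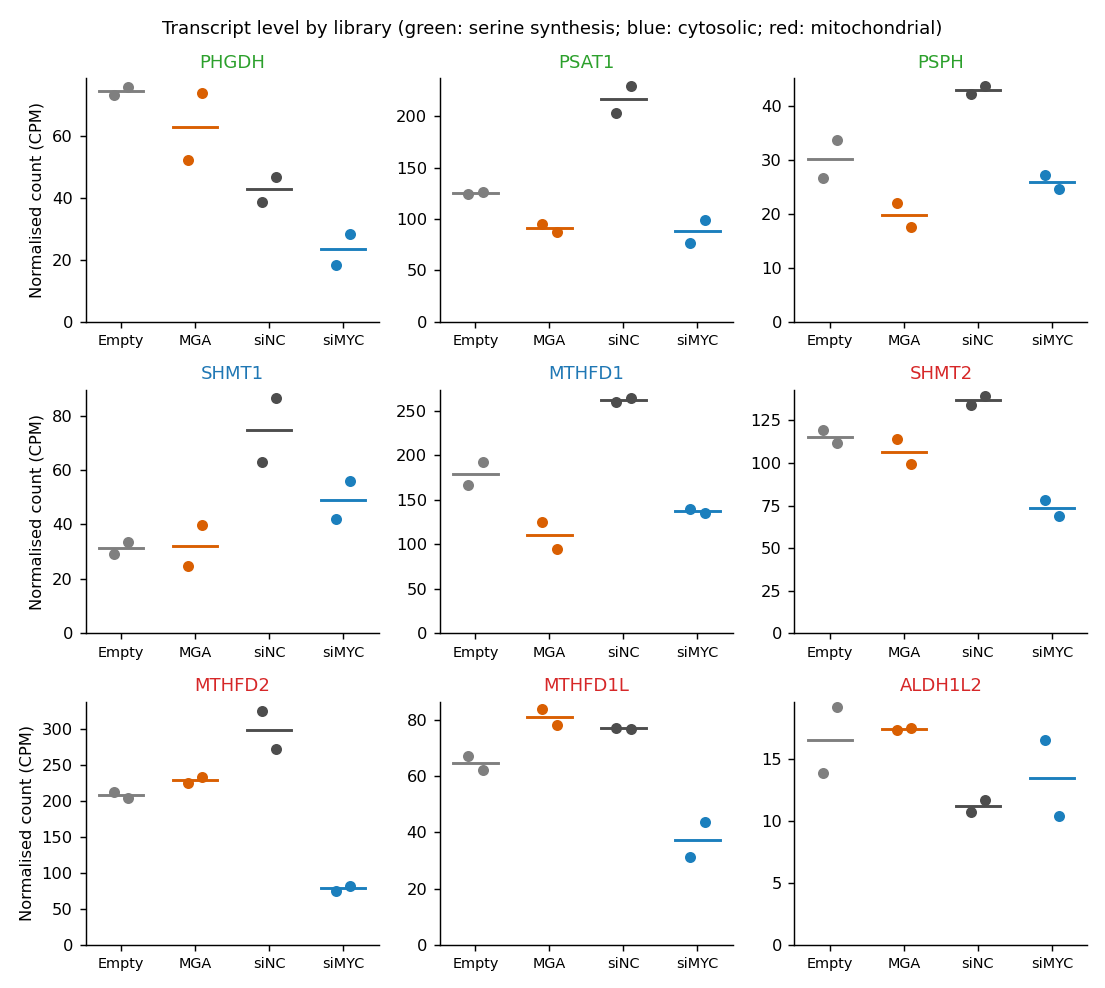
Normalised read count (CPM, linear axis from 0) of each enzyme in every library: points are the 2 libraries of a group and lines their means. With siMYC both libraries lie below both siNC libraries for 8 enzymes, against 33.6% of all genes. For 0 enzymes both lie above, against 34.0% of all genes. ALDH1L2 is the one whose siMYC and siNC libraries overlap.

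As levels per length, MTHFD2 was the most abundant of the 9 in both control groups, at 188 and 171 TPM in the 2 Empty libraries and 260.1 and 175 TPM in the 2 siNC libraries. MTHFD1 (106 and 152 TPM) and SHMT2 (135 and 114 TPM) came next in the Empty libraries and overlapped. PSAT1 followed at 95.4 and 90.6 TPM and PHGDH at 72.5 and 63.3 TPM, each clear of its neighbours in these libraries. MTHFD1L (55.3 and 29.8 TPM), SHMT1 (36.1 and 28.4 TPM) and PSPH (24.9 and 34.2 TPM) overlapped one another. ALDH1L2 was far lower, at 2.74 and 5.12 TPM in the Empty libraries and between 2.21 and 5.51 TPM in every library, and 5.52% of the genes tested had a lower mean there. With siMYC the 4 most abundant enzymes, MTHFD1, MTHFD2, SHMT2 and PSAT1, came together, with means of 72.3 to 82.4 TPM and libraries that overlapped between neighbours in that order. The lead of MTHFD2 over the other enzymes was thus seen in the Empty, MGA and siNC groups and not with siMYC.

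The TPM values carried more spread than the CPM values. The median over members of the largest gap between libraries of 1 group was 1.64-fold in TPM and 1.32-fold in CPM. The transcript length that the files give per gene and library moved between replicates, for SHMT1 from 2143 to 1464 bases in the MGA libraries. Changes of single enzymes between groups are therefore given in CPM and from the count model, and levels between genes in TPM. Sums and shares over several genes are given in TPM, some of them with CPM as well. Rows of the files named as pseudogene copies of the members held 0 counts, apart from 1 count for PSAT1P4 in 1 library.

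Promoter windows from RefSeq (GRCh38.p14, 250 bases before to 50 after an annotated start) were at hand for 6 members: PHGDH, PSAT1, SHMT1, MTHFD1, MTHFD2 and MTHFD1L. They were searched on both strands for the E-box CACGTG of MYC-MAX and MGA-MAX (its own reverse complement), the ATF4 element TGATGNAAN, the E2F site TTTCCCGC and the T-box site AGGTGTGA. The E-box was found in MTHFD1 and in MTHFD1L, and 7.26% of all 35116 windows in the table hold one. The ATF4 element was found in MTHFD1L, against 3.61% of all windows. No match to the E2F site (1.63% of windows) or the T-box site (0.98%) was found in the 6 members. The 3 windows below belong to the enzyme called lower in both experiments (MTHFD1), to the mitochondrial enzyme with both motifs (MTHFD1L) and to the enzyme with the largest fall (MTHFD2). Capitals mark the motifs, 5′ to 3′ on the gene's strand, and all 3 genes lie on the plus strand.
MTHFD1 (chr14:64388103-64388402): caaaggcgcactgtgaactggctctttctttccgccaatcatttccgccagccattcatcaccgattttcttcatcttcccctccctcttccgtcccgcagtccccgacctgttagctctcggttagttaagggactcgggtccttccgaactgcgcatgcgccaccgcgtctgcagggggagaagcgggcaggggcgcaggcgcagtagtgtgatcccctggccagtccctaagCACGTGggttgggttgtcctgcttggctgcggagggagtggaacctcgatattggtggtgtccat
MTHFD1L (chr6:150866236-150866535): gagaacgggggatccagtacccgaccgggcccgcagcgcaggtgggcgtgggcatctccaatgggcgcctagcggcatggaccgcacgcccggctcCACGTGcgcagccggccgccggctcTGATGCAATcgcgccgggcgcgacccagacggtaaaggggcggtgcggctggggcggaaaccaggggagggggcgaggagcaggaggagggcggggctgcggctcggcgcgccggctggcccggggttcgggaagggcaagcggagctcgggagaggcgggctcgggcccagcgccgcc
MTHFD2 (chr2:74198365-74198664): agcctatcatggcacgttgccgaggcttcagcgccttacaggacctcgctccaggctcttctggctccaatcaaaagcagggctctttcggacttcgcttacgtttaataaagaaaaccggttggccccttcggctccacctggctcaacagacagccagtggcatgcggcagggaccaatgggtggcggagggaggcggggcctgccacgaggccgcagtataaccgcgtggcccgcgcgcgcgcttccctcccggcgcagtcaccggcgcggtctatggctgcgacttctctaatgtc
In MTHFD1 the E-box began 15 bases before the annotated start. In the MTHFD1L window shown it began 154 bases before the start and the ATF4 element, TGATGCAAT, 129 bases before it; 3 of the 4 MTHFD1L windows overlap and hold the same pair of motifs. The MTHFD2 window holds none of the 4 motifs. These matches describe letters in a window, and no binding was measured in these libraries.

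In serine synthesis, all 3 enzymes fell with siMYC and 0 of 3 passed the test with MGA. PHGDH, the first and committed enzyme, stood at 38.6 and 46.7 CPM with siNC and 18.4 and 28.2 CPM with siMYC. The siMYC libraries lay below the siNC libraries, as they did in the other 7 enzymes called lower, and 33.6% of all genes showed that separation (log2 fold change -0.92, SE 0.22, adjusted p = 0.0016). In the overexpression experiment PHGDH stood at 72.9 and 75.5 CPM with Empty and 52.0 and 73.6 CPM with MGA. One MGA library was at the Empty level and the other below it (log2 fold change -0.27, SE 0.21, adjusted p = 0.50; 95% interval -0.70 to 0.17).

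PSAT1, the aminotransferase of the pathway, had the largest fall of the 3. It stood at 204 and 229 CPM with siNC and 76.7 and 99.4 CPM with siMYC, so that both siMYC libraries were far below the lower siNC library (log2 fold change -1.32, SE 0.13, adjusted p = 2.9e-09). Its level was 124 and 126 CPM with Empty and 94.9 and 87.6 CPM with MGA. Both MGA libraries were lower, a separation that 25.0% of all genes showed, but PSAT1 did not pass the adjusted threshold (log2 fold change -0.45, SE 0.16, adjusted p = 0.092; 95% interval -0.79 to -0.11). It passed with upper quartile size factors (adjusted p = 0.044), with library totals alone (adjusted p = 0.022) and when the 4 Empty and MGA libraries were fitted by themselves (log2 fold change -0.46, adjusted p = 0.026).

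PSPH, the phosphatase of the last step, stood at 42.1 and 43.7 CPM with siNC and 27.1 and 24.5 CPM with siMYC (log2 fold change -0.72, SE 0.19, adjusted p = 0.0039). In the other experiment its level was 26.6 and 33.6 CPM with Empty and 21.9 and 17.5 CPM with MGA. Both MGA libraries again lay below both Empty libraries, with only 15 to 28 counts behind these values, and the change did not pass the test (log2 fold change -0.59, SE 0.29, adjusted p = 0.23; 95% interval -1.18 to 0.01). The siMYC calls of PHGDH and PSPH depended on the model or on a library. With DESeq2, PHGDH gave -0.85 (adjusted p = 0.062) and PSPH -0.69 (adjusted p = 0.21), and without siMYC replicate A, PHGDH gave -0.60 (adjusted p = 0.071).

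In the cytosolic arm, both enzymes fell with siMYC, and MTHFD1 also fell with MGA. MTHFD1 joins the dehydrogenase, cyclohydrolase and formyl-folate synthetase steps in 1 protein. It stood at 260.0 and 265 CPM with siNC and 139 and 135 CPM with siMYC, with little spread between the libraries of a group (log2 fold change -0.93, SE 0.11, adjusted p = 1.7e-07). Its level was 167 and 192 CPM with Empty and 125 and 94.6 CPM with MGA (log2 fold change -0.69, SE 0.15, adjusted p = 0.0027; 95% interval -0.99 to -0.39). Both MGA libraries were below both Empty libraries. Genes called lower in both experiments made up 1.91% of the genes tested, and MTHFD1 was 1 of them. The call with MGA rested on the B libraries: the log2 fold change was -0.59 (adjusted p = 0.074) without Empty replicate B and -0.52 (adjusted p = 0.082) without MGA replicate B, while it was kept without Empty replicate A (-0.79, adjusted p = 0.011) and without MGA replicate A (-0.92, adjusted p = 0.0045). On log2(TPM + 1) the fall was larger and was not called (-0.91, adjusted p = 0.11 in limma).

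SHMT1, the cytosolic serine hydroxymethyltransferase, stood at 62.9 and 86.3 CPM with siNC and 41.8 and 55.8 CPM with siMYC. The groups did not overlap, but the libraries within each differed by more than the nearest libraries of the 2 groups (log2 fold change -0.65, SE 0.18, adjusted p = 0.0054). Leaving out siNC replicate B gave -0.39 (adjusted p = 0.20), leaving out siMYC replicate A gave -0.43 (adjusted p = 0.12), and DESeq2 gave -0.58 (adjusted p = 0.23). With MGA, at 24.6 and 39.7 CPM against 28.9 and 33.6 CPM with Empty, one library was below and the other above both Empty libraries (log2 fold change 0.01, SE 0.31, adjusted p = 1.0). The interval was wide (95% interval -0.62 to 0.63), and changes inside it were not detectable at this depth.

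**Figure D2:**
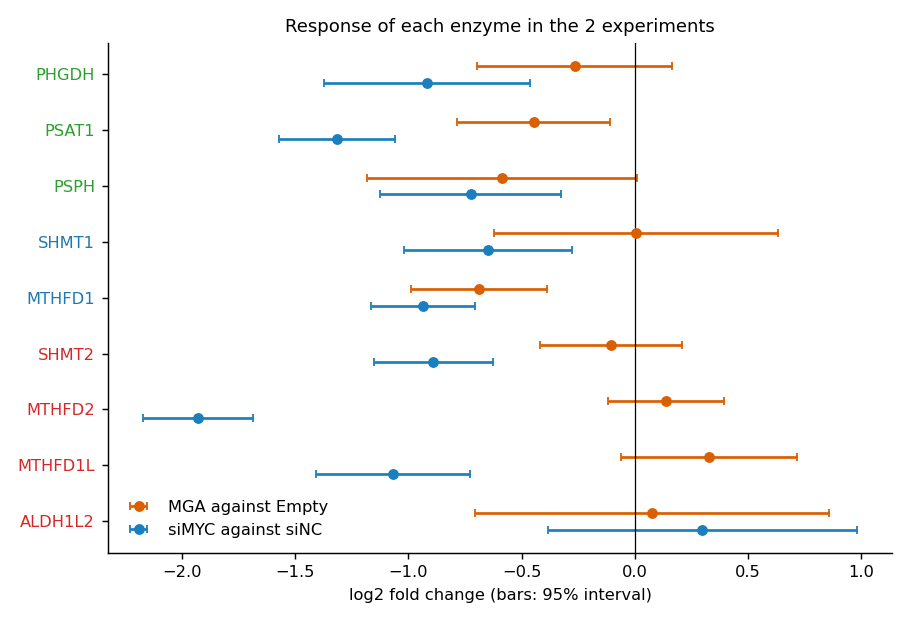
log2 fold change of each enzyme in the 2 experiments (orange, MGA against Empty; blue, siMYC against siNC), with bars for the 95% interval of the joint edgeR fit. MTHFD2 and MTHFD1L lie at 0.14 and 0.33 with MGA and at -1.93 and -1.07 with siMYC, while MTHFD1 lies below 0 in both.

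In the mitochondrial arm, 3 of 4 enzymes fell with siMYC and 0 of 4 were called with MGA. MTHFD2, the dehydrogenase and cyclohydrolase that is low in most resting adult tissue and high in tumours, stood at 326 and 272 CPM with siNC and 74.9 and 82.2 CPM with siMYC. Both siMYC libraries were far below both siNC libraries (log2 fold change -1.93, SE 0.12, adjusted p = 9.4e-13), and 0.499% of the genes tested had as low or a lower log2 fold change. With Empty it stood at 213 and 204 CPM and with MGA at 225 and 234 CPM. Both MGA libraries were slightly above both Empty libraries, as 27.6% of all genes were, and no change was called (log2 fold change 0.14, SE 0.13, adjusted p = 0.57). The interval, -0.12 to 0.39, leaves out a loss of the size seen with siMYC.

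MTHFD1L, the mitochondrial formyl-folate synthetase that releases formate, stood at 77.2 and 77.0 CPM with siNC and 31.3 and 43.6 CPM with siMYC, with each siMYC library below each siNC library (log2 fold change -1.07, SE 0.17, adjusted p = 8.8e-06). Its level was 67.1 and 62.4 CPM with Empty and 83.9 and 78.3 CPM with MGA. The MGA libraries were the higher ones, without passing the test (log2 fold change 0.33, SE 0.19, adjusted p = 0.31; 95% interval -0.06 to 0.72). On log2(TPM + 1) the siMYC call was lost (-0.66, adjusted p = 0.26 in limma).

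SHMT2, the mitochondrial hydroxymethyltransferase, stood at 134 and 139 CPM with siNC and 78.1 and 68.7 CPM with siMYC (log2 fold change -0.89, SE 0.13, adjusted p = 2.7e-06). It stood at 119 and 112 CPM with Empty and 114 and 99.3 CPM with MGA, where the groups overlapped (log2 fold change -0.10, SE 0.15, adjusted p = 0.74; 95% interval -0.42 to 0.21). ALDH1L2, which oxidises formyl-folate to carbon dioxide and makes NADPH in mitochondria, was the member that did not follow. It stood at 10.7 and 11.7 CPM with siNC and 16.5 and 10.4 CPM with siMYC, with 1 siMYC library above and 1 below both controls (log2 fold change 0.30, SE 0.33, adjusted p = 0.51; 95% interval -0.39 to 0.98). It stood at 13.9 and 19.2 CPM with Empty and 17.3 and 17.5 CPM with MGA (log2 fold change 0.08, SE 0.38, adjusted p = 0.94; 95% interval -0.70 to 0.86). Its 12 to 36 counts per library leave changes inside these intervals undetectable.

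The 2 responses were then compared in 1 model, as the log2 fold change with MGA minus that with siMYC. They share no libraries, but they differ in method, in depth and in the share of genes called, 39.0% with siMYC and 8.96% with MGA. The Empty and MGA libraries were the shallower ones, and the part of depth in these shares was not tested. MTHFD2 had the largest difference, 2.07 (SE 0.17, adjusted p = 1.9e-09), and 99.2% of genes had a smaller or equal one. MTHFD1L differed by 1.40 (SE 0.25, adjusted p = 0.00022), PSAT1 by 0.87 (SE 0.21, adjusted p = 0.0038) and SHMT2 by 0.79 (SE 0.20, adjusted p = 0.0061). By contrast the difference of MTHFD1, 0.25 (95% interval -0.13 to 0.63, adjusted p = 0.39), was not called, nor were those of PSPH (0.14, adjusted p = 0.84), PHGDH (0.65, adjusted p = 0.15) and SHMT1 (0.65, adjusted p = 0.21). ALDH1L2 also did not differ detectably (-0.22, 95% interval -1.26 to 0.82, adjusted p = 0.82). Of the 4 calls, that of MTHFD2 was kept in all 18 alternatives, and that of MTHFD1L in all but the 2 on TPM. Those of PSAT1 and SHMT2 were lost with DESeq2 (0.82, adjusted p = 0.082 and 0.75, adjusted p = 0.15) and on TPM. SHMT2 also lost its call without MGA replicate A (0.67, adjusted p = 0.072), and PHGDH gained one without siMYC replicate B (0.96, adjusted p = 0.041).

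**Figure D3:**
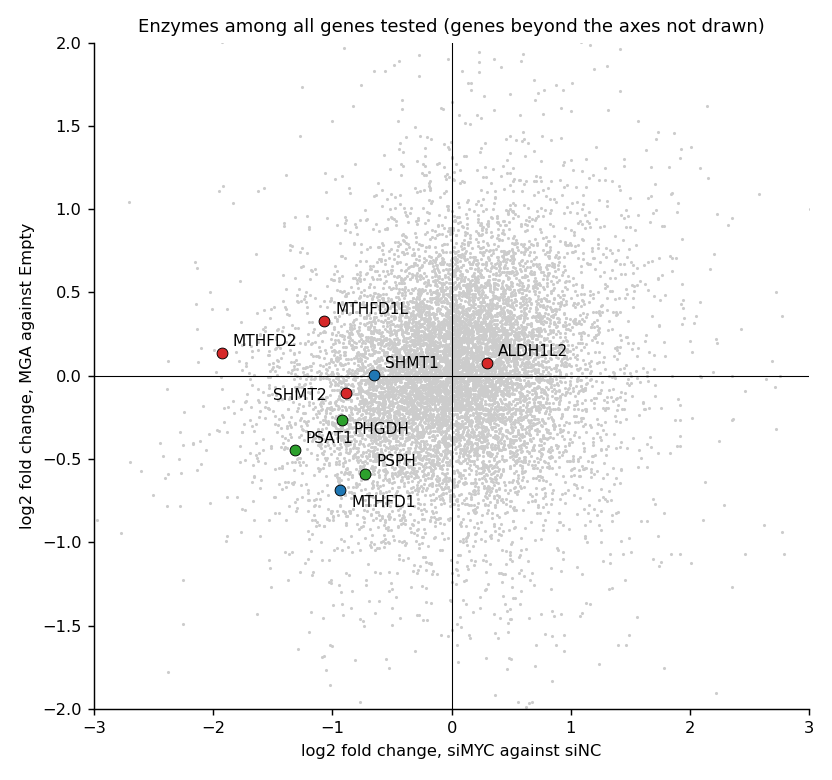
log2 fold change with siMYC (x axis) and with MGA (y axis) for the 9 enzymes (green, serine synthesis; blue, cytosolic; red, mitochondrial) over the other genes tested (grey). The enzymes other than ALDH1L2 lie between -0.65 and -1.93 on the x axis and spread from -0.69 (MTHFD1) to 0.33 (MTHFD1L) on the y axis.

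Of 3 ratios between matched enzymes of the mitochondrial and cytosolic arms, that of MTHFD2 to MTHFD1 was higher with MGA and lower with siMYC than in the controls, and the other 2 did not show this pattern. Taken in CPM, the ratio of MTHFD2 to MTHFD1 is not corrected for shifts in transcript length. It was 1.28 and 1.06 with Empty and 1.80 and 2.47 with MGA. It was 1.25 and 1.03 with siNC and 0.538 and 0.609 with siMYC. The control groups overlapped, the MGA libraries were both above them and the siMYC libraries both below. The ratio of MTHFD1L to MTHFD1 in CPM was 0.403 and 0.325 with Empty and 0.672 and 0.827 with MGA, again without overlap, but 0.297 and 0.291 with siNC and 0.224 and 0.323 with siMYC, where the libraries overlapped. In TPM this ratio also overlapped between Empty (0.522 and 0.196) and MGA (0.517 and 1.04). The ratio of SHMT2 to SHMT1 in CPM overlapped between the groups of each experiment, at 4.12 and 3.32 with Empty, 4.63 and 2.50 with MGA, 2.14 and 1.61 with siNC and 1.87 and 1.23 with siMYC.

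As a share of the summed TPM of the 6 folate enzymes, the mitochondrial arm made up 72.9 and 64.0 percent with Empty and 76.9 and 78.4 percent with MGA. Its share was 67.3 and 63.2 percent with siNC and 61.4 and 60.4 percent with siMYC. The summed TPM of the mitochondrial arm was 381 and 320.3 with Empty and 348 and 360.2 with MGA. On TPM the MGA libraries thus lay between the Empty libraries. In CPM this sum was 413 and 397 with Empty and 441 and 429 with MGA, so that both MGA libraries lay above both Empty libraries. The cytosolic sum was 142 and 180.1 TPM with Empty and 104 and 99.2 TPM with MGA. In CPM it was 196 and 225 with Empty and 150 and 134 with MGA, lower in both units. With siMYC both sums were lower, the mitochondrial one at 183 and 193 against 430.3 and 383 TPM and the cytosolic one at 115 and 126 against 209.5 and 223 TPM. MTHFD2 and SHMT2 carry most of the mitochondrial sum. Taken instead from the mean of log2(TPM + 1) over the members of an arm, turned back to the linear scale, which gives ALDH1L2 equal weight, the share was 38.0 and 30.3 percent with siNC and 36.9 and 32.2 percent with siMYC, and the siMYC libraries lay between the siNC libraries. On that scale it was 43.4 and 39.6 percent with Empty and 53.4 and 49.3 percent with MGA, still without overlap. The summed TPM of the 3 serine synthesis enzymes was 193 and 188 with Empty, 140.0 and 146 with MGA, 248 and 238 with siNC and 111 and 148 with siMYC, lower in both treated groups. In CPM the serine synthesis sum was 223 and 235 with Empty and 169 and 179 with MGA. It was 284 and 319.6 CPM with siNC and 122 and 152 CPM with siMYC. These ratios and shares were not tested. With 2 libraries on each side, the smallest p of an exact permutation test would be 0.333.

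**Figure D4:**
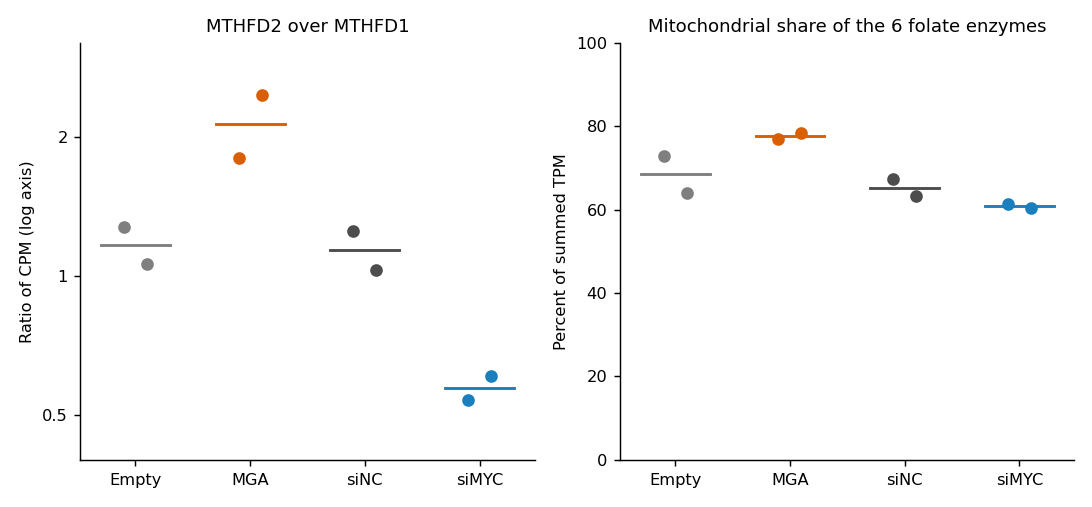
Left, ratio of MTHFD2 to MTHFD1 in CPM on a log axis; right, share of the mitochondrial enzymes in the summed TPM of the 6 folate enzymes, on an axis from 0 to 100 percent. Points are libraries and lines are means; the MTHFD2 to MTHFD1 ratio is 1.80 and 2.47 with MGA and 0.538 and 0.609 with siMYC.

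The genes around these enzymes were taken from 5 lists of 32 genes, of which 27 could be tested; AMT, CTH, GNMT, BHMT and BHMT2 had too few counts. With siMYC 16 of the 27 fell and 6 rose, against the 20.0% and 19.0% of all genes called in these directions, and with MGA 4 fell and 3 rose, against 4.0% and 4.96%. The glycine cleavage system, a mitochondrial source of one-carbon units from glycine, fell with siMYC in 3 of 3 genes tested. GLDC, its decarboxylase, went from 50.0 and 57.7 to 17.5 and 20.3 CPM (log2 fold change -1.53, SE 0.20, adjusted p = 4.8e-07). GCSH, its carrier protein, went from 80.7 and 98.0 to 36.3 and 30.1 CPM (log2 fold change -1.42, SE 0.17, adjusted p = 1.3e-07), with reads that its copies elsewhere in the genome can share. DLD, a subunit it has in common with other dehydrogenases, had a log2 fold change of -0.65. With MGA 0 of these 3 genes were called in edgeR, nor at an unadjusted p under 0.05, and GLDC stood at 56.7 and 55.2 CPM with Empty and 55.7 and 50.2 CPM with MGA. The responses of GLDC differed by 1.46 (adjusted p = 0.00057). Those of GCSH differed by 1.06 (adjusted p = 0.026), a call lost without Empty replicate A (0.94, adjusted p = 0.11), MGA replicate B (0.89, adjusted p = 0.15), siNC replicate B (0.90, adjusted p = 0.077) and siMYC replicate B (0.95, adjusted p = 0.054).

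Among other folate enzymes, GGH, which trims folate polyglutamates, MTRR, which reactivates methionine synthase, and TYMS, thymidylate synthase, fell with siMYC, with log2 fold changes of -0.85, -0.85 and -0.67 (adjusted p = 6.5e-05, 0.00068 and 0.00016). With MGA their log2 fold changes were -0.41, 0.23 and -0.35, and 0 of these 3 were called or had an unadjusted p under 0.05. Among 10 carriers, 6 fell and 2 rose with siMYC, the latter being SLC38A2 (0.47) and SFXN3 (0.69), named after their values were seen. The mitochondrial folate carrier SLC25A32 (-1.02), the proton-coupled folate transporter SLC46A1 (-0.96), the neutral amino acid carrier SLC1A5 (-0.84) and the mitochondrial serine carrier SFXN1 (-0.64) were lower on the log2 scale. With MGA 1 carrier fell and 1 rose, and both calls depended on the model and on the number of libraries. With DESeq2 on all libraries, SLC46A1 gave -0.84 (adjusted p = 0.29) and SLC38A2 gave 0.43 (adjusted p = 0.12). In edgeR, SLC38A2 was also not called with upper quartile size factors (0.35, adjusted p = 0.058) or library totals alone (0.30, adjusted p = 0.11). SLC46A1 had a log2 fold change of -0.84 (adjusted p = 0.041), with -0.54 (adjusted p = 0.43) without Empty replicate B, -0.96 (adjusted p = 0.13) without MGA replicate A and -0.75 (adjusted p = 0.20) without MGA replicate B. The amino acid transporter SLC38A2 had 0.43 (adjusted p = 0.019), with 0.47 (adjusted p = 0.10) without Empty replicate A, 0.39 (adjusted p = 0.19) without Empty replicate B and 0.32 (adjusted p = 0.27) without MGA replicate A.

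The users of the folate one-carbon unit in purine synthesis, GART and ATIC, both fell with siMYC (log2 fold changes -1.20 and -0.94). ATIC, which adds the last carbon of the purine ring, also fell with MGA, from 184 and 176 to 97.6 and 113 CPM (log2 fold change -0.78, SE 0.15, adjusted p = 0.00075). That call held without each library in turn and with DESeq2, and was lost on TPM. In the methionine cycle 2 of 4 tested genes fell in each comparison, and MAT2B rose with siMYC by a log2 fold change of 0.44 (adjusted p = 0.022), a call lost without any one of the 4 siNC and siMYC libraries (0.43 to 0.45). AHCY, which clears S-adenosylhomocysteine, had log2 fold changes of -1.22 with siMYC and -0.44 with MGA. MAT2A, which makes S-adenosylmethionine, had -0.44 and -0.35. Both calls with MGA (adjusted p = 0.027 and 0.037) were weak. They were lost on TPM and with DESeq2 (AHCY -0.44, adjusted p = 0.20, and MAT2A -0.34, adjusted p = 0.26). AHCY was not called without Empty replicate B (-0.32, adjusted p = 0.29), MGA replicate A (-0.54, adjusted p = 0.075) or MGA replicate B (-0.36, adjusted p = 0.22). MAT2A was not called without any one of the 4 libraries of the experiment (log2 fold changes -0.42 to -0.29).

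As a further regulator of these enzymes, ATF4 was listed with 7 reference targets. With MGA, ATF4 stood at 293 and 293 CPM against 299.9 and 315 CPM with Empty, and 2 of the 8 genes rose. DDIT3 (CHOP, a stress-induced factor) went from 59.0 and 64.8 to 139 and 140.2 CPM (log2 fold change 1.17, SE 0.17, adjusted p = 3.5e-05). TRIB3, a pseudokinase induced by the same stress, went from 96.1 and 134 to 199 and 171 CPM (log2 fold change 0.69, SE 0.16, adjusted p = 0.0047). The TRIB3 call was lost with DESeq2 (0.69, adjusted p = 0.080) and on TPM. It was also lost without Empty replicate A (0.46) and without MGA replicate A (0.57). With siMYC the 8 genes split, 3 rising (SLC7A11, DDIT3 and TRIB3) and 3 falling (ATF4, ASNS and CHAC1, which degrades glutathione). DDIT3 and CHAC1, at log2 fold changes of 0.83 and -2.38, are named after their values were seen. The value of CHAC1 rests on few reads, 6 and 8 counts with siNC and 2 and 1 with siMYC. TRIB3, at 0.49, was not called without siNC replicate B (0.34, adjusted p = 0.19) or without siMYC replicate A (0.41, adjusted p = 0.11). ATF4 went from 260.0 and 229 to 180.2 and 174 CPM (log2 fold change -0.46, adjusted p = 0.00066). ASNS, asparagine synthetase, went from 52.2 and 62.4 to 33.1 and 27.0 CPM (log2 fold change -0.92), and the cystine carrier SLC7A11 from 410.1 and 379 to 578 and 553 CPM (log2 fold change 0.52). ASNS responded differently in the 2 experiments (1.30, adjusted p = 0.00053), and stood at 92.6 and 89.9 CPM with Empty and 104 and 136 CPM with MGA. That call was lost on TPM (adjusted p = 0.054 on log2(TPM + 1) in limma). SLC7A11 differed the other way (-0.41, adjusted p = 0.044). Of the 8 genes, 1 was thus called in each direction, against 10.3% of all genes in that of ASNS and 8.22% in that of SLC7A11. The SLC7A11 call was lost without Empty replicate A (-0.29), MGA replicate A (-0.47), MGA replicate B (-0.35), siNC replicate B (-0.35) and siMYC replicate A (-0.37). Of the named companion calls with siMYC, those of GLDC, GCSH, SLC1A5, AHCY, ATIC, SLC7A11 and ASNS were kept in all 19 alternatives, and the others were lost at least on TPM, where SFXN1 gave -0.13 in limma; the genes named after their values were seen were not followed across alternatives.

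**Figure D5:**
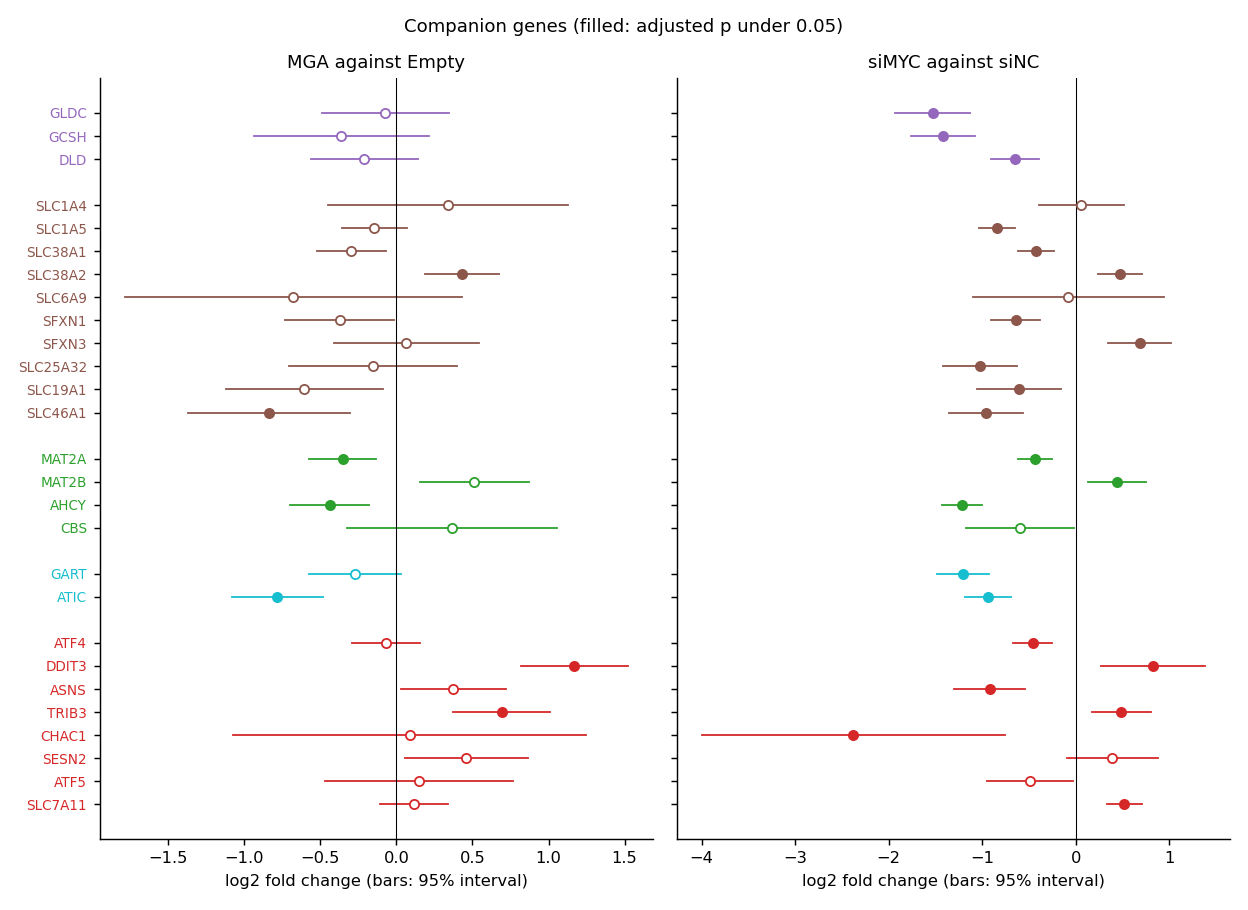
log2 fold change of the 27 tested companion genes, by list (violet, glycine cleavage; brown, carriers; green, methionine cycle; cyan, purine steps; red, ATF4 and targets), with 95% intervals; filled points passed the adjusted threshold. With siMYC 16 points are filled below 0 and 6 above, and with MGA 4 below and 3 above; the 2 panels have different x ranges.

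The genes with the profile most like that of a member were looked up by the Euclidean distance between log2 CPM over the 8 libraries, each gene centred on its mean, among 9023 other genes with an average log2 CPM of at least 4. Nearest to MTHFD1 were CCT4 (distance 0.23), CENPK (0.26) and MAD2L1 (0.27). Nearest to MTHFD2 were MBD2 (0.35), DAP (0.45) and ADSS (0.47). Their log2 fold changes with siMYC were -1.97, -1.77 and -1.79, near that of MTHFD2 by the way they were chosen. PHGDH had no gene as near, with NOM1 (0.51), SLC25A30 (0.55) and ESF1 (0.56) the closest. The 8 libraries fall into 2 experiments, and a distance over so few libraries is a description of this set.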

How the data were processed

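Messenger RNA of A549 cells was sequenced in 8 libraries, 2 in each of 4 groups. The submitters' processing notes name the build hg19, STAR and RSEM, without versions, annotation or strand setting. Per the file headers, the authors deposited expected counts (reads shared between genes are divided among them), TPM values and FPKM values (the last not used). Values of overlapping genes and close copies are uncertain.

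Expected counts were rounded, and filterByExpr kept 11218 genes at a minimum count of 10 and a minimum total of 15. After TMM scaling, all 8 libraries entered 1 quasi-likelihood model of edgeR 4.0.16 in R 4.3.3, with 4 residual degrees of freedom and a common biological coefficient of variation of 0.0623. Fitted by themselves, the Empty and MGA libraries had a coefficient of 0.0343 and the siNC and siMYC libraries 0.0725. P-values are two-sided, adjusted by Benjamini-Hochberg over all genes tested and called under 0.05; SE is the log2 fold change over the square root of F. The code was tested on simulated data. Alternatives were DESeq2 1.42.0, limma 3.58.1 on log2(TPM + 1) and log2(TPM + 0.1), other size factors and filters, a replicate block, each experiment alone, the table without MGA, and each library left out. No label says that libraries A and B are separate cultures, and the p-values reflect the spread between these libraries, which may be technical. Chi-square per degree of freedom between the libraries of a group was 1.13 to 1.85, above counting noise alone.

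The members and lists were chosen with earlier results of these data known. Named were the 9 members, up to 4 called companions per list and comparison with the smallest p, and the 3 nearest profiles of MTHFD1, MTHFD2 and PHGDH. In bulk RNA, fewer cells of a type and less RNA per cell cannot be told apart. Promoter windows are on GRCh38.p14, and no coordinates of the hg19 files are given. Protein sequences were not used here, and some other folate genes are not reported here.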

Additional observations from a re-analysis of the deposited data

How the results depend on the processing

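With 9 members and 3 contrasts, the 13 calls had 243 values under alternatives, of which 216 kept direction and call, 27 lost the call and 0 reversed. Depth limits PSPH, SHMT1 and ALDH1L2 most. A minimum count of 30 removed ALDH1L2, so it has no value there.

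Over all genes, the 1005 called with MGA became 274 with DESeq2, 82 and 63 in limma on log2(TPM + 1) and log2(TPM + 0.1), and 405 to 1113 with 1 library left out (431 without Empty replicate A, 405 without Empty replicate B, 417 without MGA replicate A and 470 without MGA replicate B). The 4370 called with siMYC became 1923 with DESeq2, 1245 and 1191 in limma, and 3317 to 4292 with 1 library left out. The 2076 differences became 711 with DESeq2, 347 and 331 in limma, and 1326 to 1926 with 1 library left out (1326 without MGA replicate A).

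The 1 member called with MGA became 2 with upper quartile size factors, library totals alone or only the 4 libraries of the experiment (PSAT1 was added), 0 and 0 in limma on TPM, and 0 to 1 with 1 library left out (0 when Empty B or MGA B was the one). The 8 members called with siMYC became 5 with DESeq2, 4 and 4 in limma, and 6 to 8 with 1 library left out. The 4 differences became 2 with DESeq2, 1 and 1 in limma, and 3 to 5 with 1 library left out.

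The mean mitochondrial share, 68.4, 77.7, 65.2 and 60.9 percent in Empty, MGA, siNC and siMYC on TPM, was 65.8 (Empty), 75.4 (MGA), 60.8 (siNC) and 52.2 percent (siMYC) on CPM, and 41.5, 51.3, 34.2 and 34.5 percent as a mean of log2(TPM + 1) per arm. Its order MGA over Empty was kept in each, and siMYC under siNC on TPM and CPM.

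Changes of sign concerned values that were not called. SHMT1 with MGA (0.01) was -0.070 with upper quartile size factors, -0.12 with library totals alone, -0.010 without the MGA gene, -0.014 in only the 4 libraries of the experiment, -0.10 and -0.11 in limma, and -0.34 to 0.35 with 1 library left out. ALDH1L2 with MGA (0.08) was -0.050 with library totals alone and -0.14 to 0.32 with 1 library left out. ALDH1L2 with siMYC (0.30) was -0.10 to 0.55 with 1 library left out, and its difference (-0.22) was -0.47 to 0.18. The difference of PSPH (0.14) was -0.035 with library totals alone, -0.53 and -0.56 in limma, and -0.050 to 0.32 with 1 library left out. The cause of these shifts was not tested.

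The labels do not say whether libraries with the same letter belong together. Deviations of same-lettered libraries correlated at -0.0416 in the MGA and 0.187 in the siMYC experiment. With 2 pairs each, these values cannot decide whether the letters mark pairs. With a replicate block, 1097 genes were called with MGA, 4547 with siMYC and 2180 differences, and the members called stayed at 1, 8 and 4. When each experiment was fitted alone, 1381 genes were called with MGA and 4135 with siMYC.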

Other observations

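The control groups of the 2 experiments, which differ in vector or siRNA and in whatever else separated the experiments and cannot be told apart by these labels, differed in serine synthesis transcripts. PHGDH stood at 72.9 and 75.5 CPM with Empty and 38.6 and 46.7 CPM with siNC. PSAT1 went the other way, at 124 and 126 CPM with Empty and 204 and 229 CPM with siNC, so that the ratio of PSAT1 to PHGDH in CPM was 1.70 and 1.67 with Empty and 5.28 and 4.91 with siNC. All of PSPH, SHMT1, MTHFD1, SHMT2, MTHFD2 and MTHFD1L were also higher in both siNC libraries than in both Empty libraries, and ALDH1L2 was lower, at 10.7 and 11.7 CPM against 13.9 and 19.2 CPM. PSPH stood at 42.1 and 43.7 CPM with siNC against 26.6 and 33.6 CPM with Empty, MTHFD2 at 326 and 272 against 213 and 204 CPM, SHMT2 at 134 and 139 against 119 and 112 CPM and MTHFD1L at 77.2 and 77.0 against 67.1 and 62.4 CPM. SHMT1 and MTHFD1 stood at 62.9 and 86.3 CPM against 28.9 and 33.6 CPM and at 260.0 and 265 CPM against 167 and 192 CPM. DDIT3 was lower with siNC, at 13.6 and 10.5 CPM against 59.0 and 64.8 CPM, while ATF4 stood at 260.0 and 229 CPM against 299.9 and 315 CPM. In TPM, SHMT2, MTHFD2, MTHFD1L and ALDH1L2 overlapped between the control groups. The share of all genes that separate Empty from siNC was not counted. The separation in CPM is therefore not shown to be particular to these enzymes. These values were not tested.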
